A study of Homo sapiens with 6 samples.

Results

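The integrated stress response was followed through 10 genes in HEK293T cells, a human embryonic kidney line that carries SV40 large T antigen. They are the eIF2 kinase genes EIF2AK1, EIF2AK3 and EIF2AK4, the transcription factor genes ATF4 and DDIT3, the phosphatase regulators PPP1R15A and PPP1R15B, and the effector genes TRIB3, CHAC1 and SESN2. The eIF2 kinase gene EIF2AK2 is not among them and is read with the wider pathway. The genes were chosen by symbol, with earlier results of these data known. Each of the 10 was found among the 57820 rows of the count table and passed the filter on low counts. Their counts ran from 432 (DDIT3) to 26288 (ATF4) per library, and at 432 counts the counting error alone is 4.81%. All cells held RfxCas13d, an effector that cleaves RNA paired to its CRISPR RNA (crRNA). The 3 non-targeting (NT) libraries had a crRNA without a target, and the 3 mCherry-targeting (TAR) libraries a crRNA against mCherry, a red fluorescent protein mRNA that human cells do not encode. The labels call the libraries of a group biological replicates, without saying whether they came from separate cultures or transfections, so p-values measure the spread between these libraries. All cells grew at 37 °C and 10% CO2 in medium with 10% serum. The labels do not state how RfxCas13d was delivered, whether the cells held mCherry mRNA or how long they were treated, and that mRNA was not analysed here.

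In this pathway, stress-sensing kinases phosphorylate the translation initiation factor eIF2, which slows protein synthesis in general while the ATF4 mRNA is translated more. ATF4 then raises transcription of genes for amino acid supply and stress adaptation, among them DDIT3, which encodes CHOP, and PPP1R15A, which directs a phosphatase back to eIF2 and so ends the response. ATF4 is controlled largely at translation and the kinases by their activity, neither of which mRNA counts measure.

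The libraries held 21321850 to 25906275 counts. Poly(A)-enriched RNA was sequenced, yet the non-polyadenylated 7SK RNA took 0.516%, 1.15% and 1.37% of the counts in NT replicates 1 to 3 and 0.716%, 0.439% and 1.15% in TAR replicates 1 to 3. Log2 CPM (counts scaled to the TMM-adjusted library total) also followed transcript GC content to a different degree in each library, with slopes per 10 percentage points from -0.10 in TAR replicate 1 to 0.18 in NT replicate 3. Over all 19676 genes tested the edgeR quasi-likelihood test called 2 genes at a Benjamini-Hochberg adjusted p under 0.05. Without NT replicate 1 it called 1806, and none of the 10 genes. Of 7 matched marker genes of HEK293 cells (VIM, KRT8, KRT18, NEFM, INA, PAX2 and LIN28B) 7 had a mean above 1 CPM, with summed levels of 508.3 to 572.4 CPM in NT and 488.8 to 550.7 CPM in TAR libraries. Of 6 markers each of blood cells, fibroblasts and hepatocytes, 1, 2 and 1 had a mean above 1 CPM, and PTPRC, HBB, HBA1, DCN, TTR and SERPINA1 had no count in any library.

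None of the 10 genes was called between TAR and NT by edgeR, against 0.0102% of all genes tested. With an unadjusted p under 0.05 there was 1, PPP1R15A, against 16.1% of all genes, and neither DESeq2 nor limma-voom called any of the 10, where they called 0.879% and 0.0102% of all genes. At an unadjusted p under 0.05 each had 1 of the 10, against 13.7% and 16.2% of all genes. For 0 of the 10 genes did the TAR libraries lie wholly above or below the NT libraries, while 22% of all genes tested had groups that do not overlap. The log2 fold change (TAR minus NT) was below 0 for 8 of the 10 and their median was -0.12, beside 50.6% of genes below 0 and a median of -0.0037 over all genes tested. At 55% to 65% GC, the range of 5 of the 10 genes (ATF4, PPP1R15A, TRIB3, CHAC1 and SESN2), 90.4% of 2982 genes with a mean of at least 5 CPM lay below 0, with a median of -0.16. At 40% to 50% GC, the range of the other 5 genes, 37.2% of 4739 such genes lay below 0, with a median of 0.045, and 3 of the 5 did. After correction for GC content 7 of the 10 genes lay below 0, with a median of -0.094, beside a median of -0.015 over all genes in that fit. The share of all genes below 0 was not counted after the correction.

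**Figure D1:**
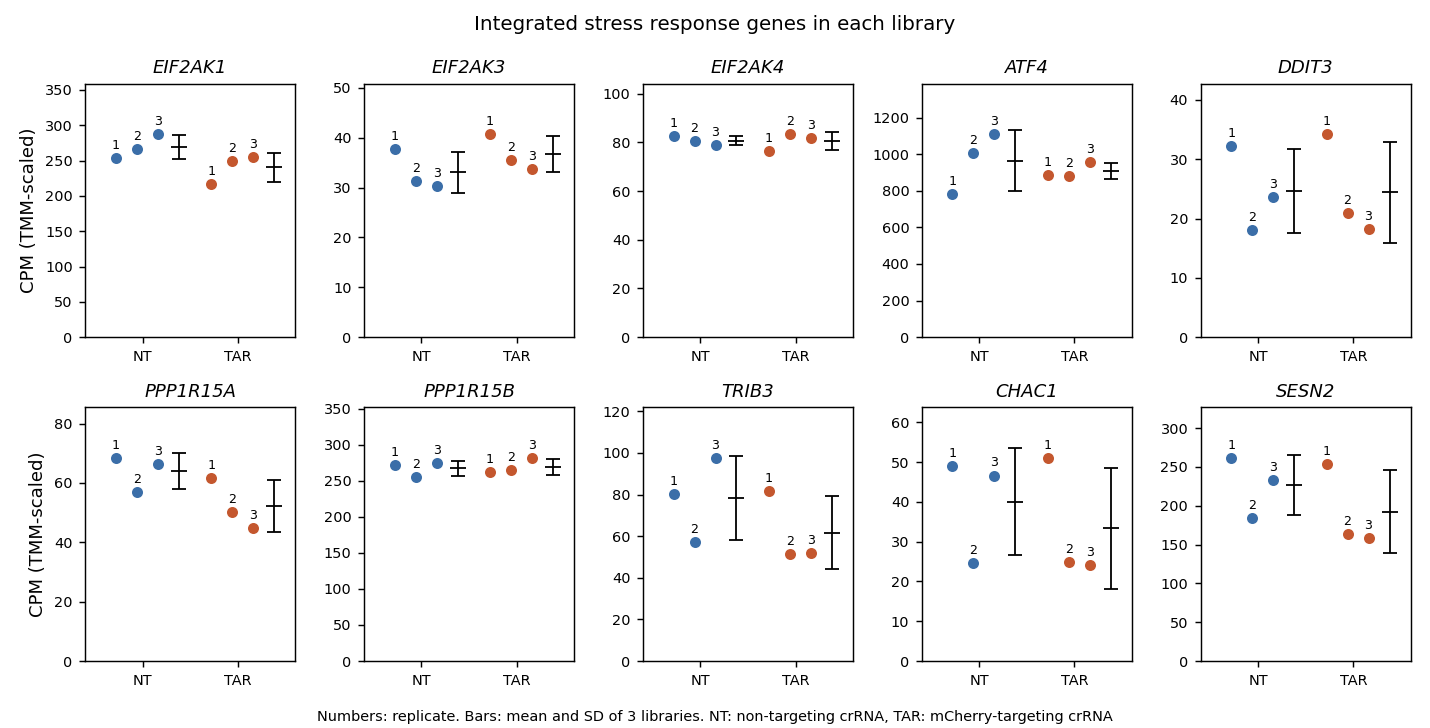
CPM after TMM scaling (vertical axes, from 0) of each gene in the 3 non-targeting (NT, blue) and 3 mCherry-targeting (TAR, orange) libraries, with the replicate number over each point and the mean and SD of 3 libraries beside them. For each of the 10 genes the groups overlap, and DDIT3, CHAC1 and SESN2 are highest in replicate 1 of either group.

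EIF2AK1 encodes HRI, the kinase that senses heme shortage and, through DELE1, mitochondrial stress. Its level was 253.5, 266.3 and 287.2 CPM in NT replicates 1 to 3 and 217.1, 249.8 and 255.2 CPM in TAR replicates 1 to 3. The highest TAR library lay just above the lowest NT library. The difference (TAR minus NT) was -0.16 ± 0.09 (SE) on the log2 scale, with a 95% interval from -0.36 to 0.04 and an edgeR adjusted p of 0.412. After GC correction it was -0.19 ± 0.10. The gene (ENSG00000086232.8) lies on chromosome 7, from 6022244 to 6059230 on the minus strand of GRCh38, and overlaps AIMP2 on the other strand over 1591 bases. AIMP2 held 15.3% as many counts as EIF2AK1, and reads from the shared stretch may have been counted to either gene, since the sources used here name no strand setting for the counting.

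EIF2AK3 encodes PERK, the kinase of the endoplasmic reticulum membrane that responds to unfolded proteins. It was at 37.7, 31.3 and 30.2 CPM in NT replicates 1 to 3 and at 40.7, 35.6 and 33.8 CPM in TAR replicates 1 to 3. Replicate 1 was the highest library of each group, and the groups overlapped. Its log2 fold change was 0.15 ± 0.11 (edgeR adjusted p = 0.532), and 0.08 ± 0.10 after GC correction at a GC content of 44.4%. EIF2AK4 encodes GCN2, which senses uncharged tRNAs and stalled ribosomes. It was among the steadiest of the genes measured, at 82.7, 80.7 and 78.8 CPM in NT and 76.4, 83.3 and 81.7 CPM in TAR replicates 1 to 3. The ratio of its highest to its lowest library was 1.09, and 98.2% of the 12270 genes with a mean of at least 5 CPM had a larger one. Its log2 fold change was -0.0049 ± 0.078 (edgeR adjusted p = 0.982; slightly above 0 with library sizes alone and without NT replicate 1 or TAR replicate 1), with a 95% interval of 0.887-fold to 1.12-fold.

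ATF4 was the most abundant of the 10 genes, at 783.3, 1003.7 and 1108.3 CPM in NT replicates 1 to 3 and 886.3, 880.0 and 956.0 CPM in TAR replicates 1 to 3. The NT libraries spanned 1.41-fold and enclosed the TAR libraries, which spanned 1.09-fold. For ATF4 the log2 fold change was -0.09 ± 0.13 (edgeR adjusted p = 0.762). Its sign turned with GC correction, to 0.03 ± 0.12 at a GC content of 56.7%, with the library set term (a term for libraries with a 7SK share above or below 1%) and without NT replicate 3. The 95% interval of the fold ran from 0.778 to 1.14. Its processed pseudogenes ATF4P1, ATF4P4 and ATF4P3 held 4, 100 and 990 counts over the 6 libraries together, and reads shared with such copies may be split between them.

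DDIT3 encodes CHOP, the bZIP factor that ATF4 induces and that promotes cell death under lasting stress. Its level was 32.2, 18.03 and 23.7 CPM in NT replicates 1 to 3 and 34.2, 20.9 and 18.3 CPM in TAR replicates 1 to 3. Replicate 1 was the highest in either group, 1.79-fold above the lowest library of NT and 1.87-fold above that of TAR, and the group means were nearly equal, at 24.6 ± 7.13 and 24.5 ± 8.53 CPM (SD, n = 3 each). The log2 fold change was -0.0066 ± 0.28 (edgeR adjusted p = 0.994), with the sign turned by library sizes alone, by GC correction and without NT replicate 1, TAR replicate 2 or TAR replicate 3. The 95% interval of the fold ran from 0.634 to 1.56. The estimate moved to 0.23 without NT replicate 1 and to -0.32 without TAR replicate 1. DDIT3 (ENSG00000175197.6, chromosome 12, 57516588 to 57521737, minus strand of GRCh38) overlaps MARS1, the methionyl-tRNA synthetase gene, on the plus strand over 982 bases, and MBD6 over 1028. MARS1 held 56470 counts in all and DDIT3 3511, and reads of the shared stretches may have been counted to either. Across the libraries MARS1 lay between 353.9 and 448.2 CPM and was highest in NT replicate 3.

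The PPP1R15 genes encode the subunits that direct protein phosphatase 1 to eIF2, PPP1R15A (GADD34) as the induced form and PPP1R15B (CReP) as the constitutive one. PPP1R15A was at 68.3, 57.0 and 66.4 CPM in NT replicates 1 to 3 and at 61.8, 50.1 and 44.8 CPM in TAR replicates 1 to 3. TAR replicates 2 and 3 lay below each NT library, and TAR replicate 1 above NT replicate 2. The group means were 63.9 ± 6.07 and 52.2 ± 8.66 CPM (SD, n = 3 each), 1.22-fold lower in TAR. On the log2 scale the difference was -0.29 ± 0.12, with the smallest p of the 10 genes and no call (edgeR unadjusted p = 0.0313, adjusted p = 0.268; 6.09% of all genes tested were lower at an unadjusted p under 0.05). At a GC content of 58.8%, the value after GC correction was -0.16 ± 0.12 (edgeR adjusted p = 0.791). With the library set term it was -0.37 ± 0.09 and was called (edgeR adjusted p = 0.0168, where 3.62% of all genes were called), and with that term and GC correction together it was -0.26 ± 0.08 (edgeR adjusted p = 0.168). Over the 18 alternatives the adjusted p of PPP1R15A ran from 0.0168 to 0.791, and the estimate was below 0 in all 18.

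PPP1R15B differed little between libraries, at 271.2, 255.0 and 274.9 CPM in NT replicates 1 to 3 and 261.5, 264.6 and 281.2 CPM in TAR replicates 1 to 3. The groups overlapped, and 97.3% of the genes with a mean of at least 5 CPM had a larger ratio of highest to lowest library than its 1.10. Its log2 fold change was 0.01 ± 0.08 (edgeR adjusted p = 0.959), and -0.09 ± 0.09 after GC correction at a GC content of 43.4%.

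TRIB3 encodes a pseudokinase that ATF4 and CHOP induce and that feeds back on ATF4. It was at 80.4, 57.0 and 97.5 CPM in NT replicates 1 to 3 and at 81.8, 51.4 and 51.7 CPM in TAR replicates 1 to 3. Its highest library was 1.90-fold above its lowest, and TAR replicate 1 lay with the upper NT libraries. The log2 fold change was -0.34 ± 0.25 (edgeR adjusted p = 0.532), -0.60 without TAR replicate 1 and -0.16 without NT replicate 3.

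SESN2 encodes sestrin 2, a leucine sensor that restrains mTORC1. It was at 261.3, 184.6 and 233.8 CPM in NT replicates 1 to 3 and at 253.8, 164.2 and 159.1 CPM in TAR replicates 1 to 3. TAR replicate 1 lay above NT replicates 2 and 3, and the remaining TAR libraries below each NT library. The log2 fold change was -0.24 ± 0.19 (edgeR adjusted p = 0.579), -0.48 without TAR replicate 1 and -0.12 without TAR replicate 3.

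CHAC1 encodes a gamma-glutamylcyclotransferase that degrades glutathione and is induced by ATF4. It was the most variable of the 10 genes, at 48.9, 24.7 and 46.6 CPM in NT replicates 1 to 3 and 51.0, 24.9 and 24.2 CPM in TAR replicates 1 to 3. NT replicate 2 and TAR replicates 2 and 3 lay together at the lower level and the other 3 libraries at the upper, so that each group held libraries of both. Its highest library was 2.10-fold above its lowest, and 1.28% of the genes with a mean of at least 5 CPM had a larger ratio. Its estimated log2 fold change was -0.26 ± 0.41 (edgeR adjusted p = 0.798), with a 95% interval of the fold from 0.410 to 1.70. The estimate was -0.70 without TAR replicate 1 and -0.08 without TAR replicate 3. After GC correction the values of TRIB3, SESN2 and CHAC1 were -0.19 ± 0.25, -0.10 ± 0.21 and -0.10 ± 0.41.

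**Figure D2:**
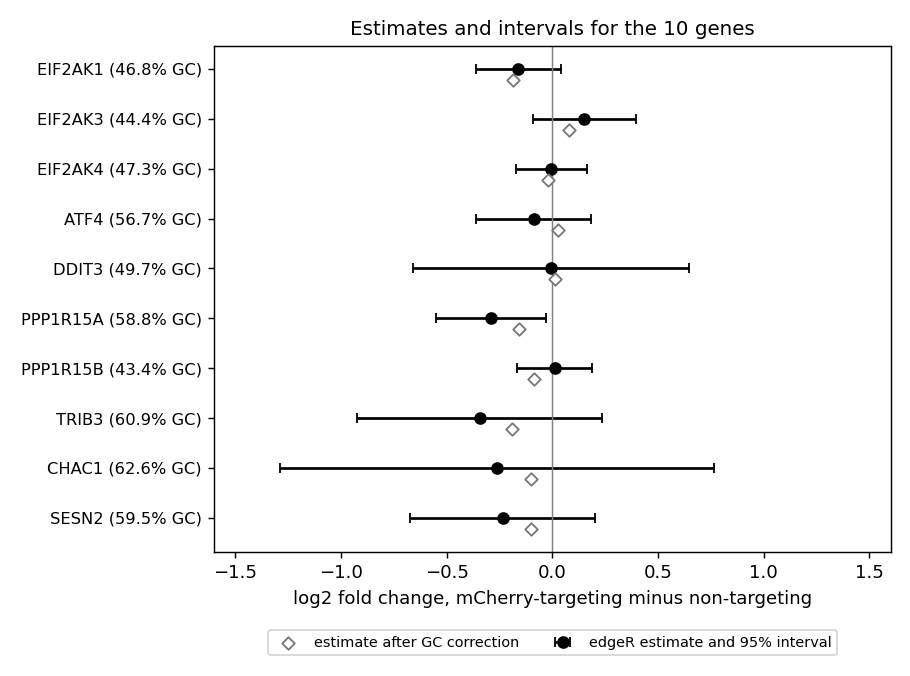
Log2 fold change (horizontal axis, TAR minus NT) of the 10 genes with its 95% interval (black), and the estimate after GC correction (open diamonds), with each gene's GC content in its label. The interval of PPP1R15A alone leaves out 0, and those of CHAC1, DDIT3 and TRIB3 are the widest of the 10.

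Several effector genes varied widely between libraries of the same group. Relative to its own mean log2 CPM over the 6 libraries, DDIT3 deviated by 0.44, -0.40 and -0.0061 in NT replicates 1 to 3 and by 0.52, -0.18 and -0.37 in TAR replicates 1 to 3. CHAC1 deviated by 0.49, -0.49 and 0.43 in NT replicates 1 to 3 and by 0.56, -0.47 and -0.51 in TAR replicates 1 to 3. SESN2, TRIB3 and PPP1R15A deviated to the same side as CHAC1 in each of the 6 libraries. EIF2AK4, PPP1R15B and EIF2AK1 deviated by -0.23 to 0.18 in any library, and ATF4 mRNA by -0.25, 0.11 and 0.25 in NT and -0.07, -0.08 and 0.04 in TAR replicates 1 to 3. ATF4 was lowest in NT replicate 1, the highest NT library of DDIT3, CHAC1, SESN2 and PPP1R15A. The median ratio of highest to lowest library was 1.47 for the 10 genes, against 1.32 for the 12270 genes with a mean of at least 5 CPM. Replicate 1 was the highest library of both groups for 5 of the 10 genes (CHAC1, DDIT3, EIF2AK3, PPP1R15A and SESN2), against 18.4% of those 12270. This order was read after the values had been seen, and was not tested.

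**Figure D3:**
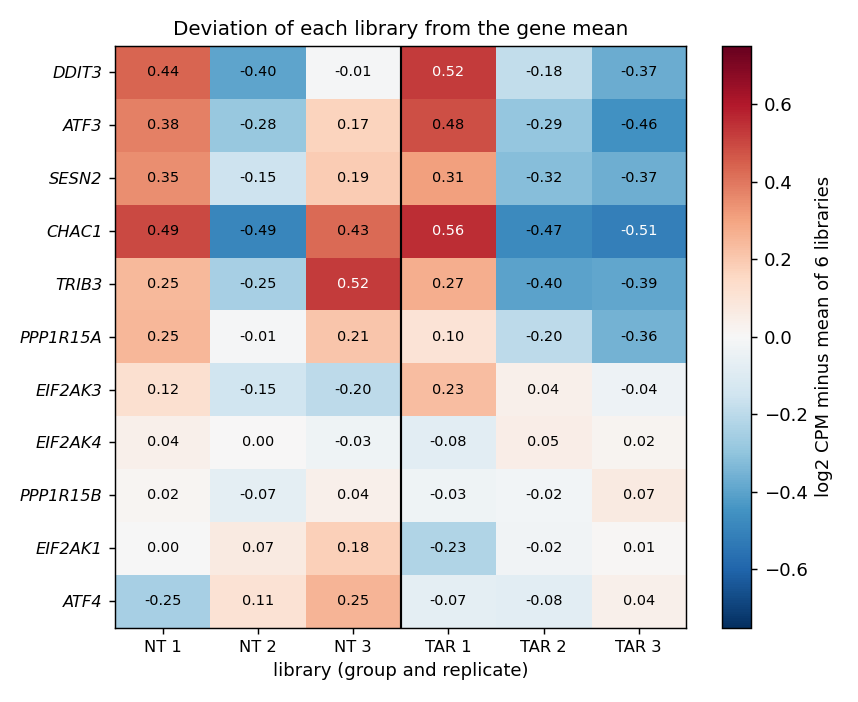
Log2 CPM minus the gene's mean over the 6 libraries (color and printed value) for the 10 genes and ATF3 (rows) in each library (columns, NT to the left of the line and TAR to the right). DDIT3, ATF3, SESN2, CHAC1, TRIB3 and PPP1R15A are above their means in NT replicate 1 and TAR replicate 1 and below them in NT replicate 2 and TAR replicates 2 and 3, while ATF4 is below its mean in NT replicate 1.

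Likeness to a gene was measured as the root mean square distance between log2 CPM values, each centered on the gene's mean over the 6 libraries, among the genes with a mean of at least 5 CPM. The genes nearest to DDIT3 were ENSG00000117289.7, which has no name in the tables used here (distance 0.074), ATF3 (0.10) and the zinc finger gene ZNF19 (0.13). ATF3 encodes a stress-induced bZIP factor downstream of ATF4. It was at 79.1, 49.95 and 68.4 CPM in NT replicates 1 to 3 and 85.1, 49.8 and 44.4 CPM in TAR replicates 1 to 3, again highest in replicate 1 of each group, and had a log2 fold change of -0.14 ± 0.28 (edgeR adjusted p = 0.845). Of the other 9 genes SESN2 came nearest to DDIT3, at place 16, followed by CHAC1 at place 83 and PPP1R15A at place 250, while ATF4 was at place 10249. The genes nearest to ATF4 were SNHG32, EMC10 and CCT7, at distances of 0.021, 0.024 and 0.025, and of the other 9 genes EIF2AK1 came nearest to ATF4, at place 2498. PPP1R15A was at place 9855, and SESN2, TRIB3, DDIT3 and CHAC1 at places 11494 to 12234.

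The order of the libraries was then read in other target genes of the pathway. This comparison was chosen after the values had been seen, and carries no test. Of 37 ATF4 and CHOP target genes with a mean of at least 5 CPM, 24 were lowest within NT in replicate 2 (64.9%, against 18.6% of all 12270 genes), and 25 were highest within TAR in replicate 1 (67.6%, against 33.0%). Within NT, 22 of the 37 were highest in replicate 3 (59.5%, against 37.9%) and 14 in replicate 1 (37.8%, against 38.3%). Replicate 1 was the highest library of both groups for 10 of the 37 (27.0%, against 18.4%). Of the 10 genes themselves, 6 were lowest within NT in replicate 2, and 6 were highest within TAR in replicate 1. After GC correction 19 of the 37 target genes were lowest within NT in replicate 2 (51.4%, against 15.5%) and 17 were highest within TAR in replicate 1 (45.9%, against 20.9%). With library sizes alone these were 27 (73.0%, against 22.4% of all 12270 genes) and 29 (78.4%, against 45.9%).

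For CHAC1, which varied most, the 250 bases before the RefSeq start hold a C/EBP-ATF response element core. ATF4 binds this element with a C/EBP partner. The element was searched as TGATGNAA on both strands, beside the cyclic AMP response element TGACGTCA and the endoplasmic reticulum stress element (ERSE). Of the 10 genes 9 had a promoter in the RefSeq table (GRCh38.p14). The core occurred in 2 of the 9, CHAC1 and PPP1R15B, against 3.89% of the 27305 genes of that table. The cyclic AMP response element occurred in 1, PPP1R15A, against 2.03%, and the endoplasmic reticulum stress element in 0, against 0.0916%. No searched motif overlapped another in these promoters. The 3 promoters with a match are shown, with the first of 2 listed for DDIT3, 5′ to 3′ on the strand of the gene and with matches in capitals. They are chr15:40953221-40953470 (plus strand) for CHAC1, chr19:48872171-48872420 (plus) for PPP1R15A, chr1:204411818-204412067 (minus) for PPP1R15B and chr12:57520515-57520764 (minus) for DDIT3.
CHAC1: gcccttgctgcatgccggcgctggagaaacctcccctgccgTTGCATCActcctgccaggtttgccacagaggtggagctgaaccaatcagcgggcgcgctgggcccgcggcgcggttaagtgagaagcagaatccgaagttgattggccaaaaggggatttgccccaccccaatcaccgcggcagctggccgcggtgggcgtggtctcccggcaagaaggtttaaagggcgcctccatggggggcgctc
PPP1R15A: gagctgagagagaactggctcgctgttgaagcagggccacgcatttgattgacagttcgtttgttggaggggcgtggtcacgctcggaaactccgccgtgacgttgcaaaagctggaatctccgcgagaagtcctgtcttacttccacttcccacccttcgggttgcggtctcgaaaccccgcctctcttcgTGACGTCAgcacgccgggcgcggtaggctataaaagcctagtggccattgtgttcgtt
PPP1R15B: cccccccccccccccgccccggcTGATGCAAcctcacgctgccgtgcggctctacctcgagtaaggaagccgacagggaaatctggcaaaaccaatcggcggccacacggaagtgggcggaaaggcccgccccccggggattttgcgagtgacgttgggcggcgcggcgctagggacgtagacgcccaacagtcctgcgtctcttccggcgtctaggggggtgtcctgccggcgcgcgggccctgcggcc
DDIT3: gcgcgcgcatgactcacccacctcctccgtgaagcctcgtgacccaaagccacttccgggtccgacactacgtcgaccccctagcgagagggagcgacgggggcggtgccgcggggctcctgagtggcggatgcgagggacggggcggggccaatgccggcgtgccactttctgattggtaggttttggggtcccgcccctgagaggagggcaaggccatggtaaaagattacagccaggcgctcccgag
The match of CHAC1 starts 209 bases before the start, on the opposite strand, that of PPP1R15B 227 bases before it and that of PPP1R15A 58 bases before it. CHAC1, with its match, ranged 2.10-fold over the libraries and PPP1R15B, with the same core, 1.10-fold, and DDIT3, with none in this window, 1.90-fold. A match is a description of these letters and not a measured binding site.

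Levels between genes were compared as CPM per kilobase of the longest annotated transcript. ATF4 stood first, at 478.0 ± 82.2 CPM per kilobase in NT and 449.5 ± 20.9 in TAR libraries (SD, n = 3 each). SESN2, EIF2AK1 and PPP1R15B followed at means over the 6 libraries of 60.7, 57.0 and 51.3, and neighbors in this order overlapped. TRIB3, PPP1R15A, DDIT3, CHAC1 and EIF2AK4 came next, at 28.0, 24.4, 23.0, 19.9 and 14.7, again with overlap from each to the next. EIF2AK3 was lowest of the 10, at 7.51, and did not overlap EIF2AK4. No overlap was seen either between ATF4 and SESN2 or between PPP1R15B and TRIB3. Of the phosphatase regulators the constitutive PPP1R15B thus had the higher level in every library. With the median transcript length in place of the longest, EIF2AK1 moved to place 2 (360.7 CPM per kilobase) and EIF2AK4 to place 3 (61.3). TRIB3, at 53.8, passed PPP1R15B, at 51.3, and EIF2AK3 was at 19.6, while ATF4 stayed first and EIF2AK3 last.

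The wider pathway was read from 7 lists chosen for the roles of their genes, with earlier results of these data known. Their counts carry no test. Neither edgeR nor limma-voom called a gene of any list, and DESeq2, which called 0.879% of all genes, called 1, PPP1CB. ABCE1, PPP1CB, JUND and GGCT were each called by edgeR with no filter on low counts (1.68% of all genes) and with the library set term (3.62%). Without NT replicate 1, where 8.98% of all genes were called, edgeR called ABCE1, DNAJC3, PPP1CA, PPP1CB, PHGDH, PYCR1, SHMT2 and SLC7A11. Counts at an unadjusted p under 0.05 stand against 10% of all genes higher, 6.09% lower and, after GC correction, 6.75% in either direction. Counts of genes whose groups did not overlap stand against 22%. Among kinases and regulators of kinase activity, 5 of 8 genes lay above 0, 4 of them at an unadjusted p under 0.05, with a median log2 fold change of 0.14 at a median GC content of 41.7%. EIF2AK2, the kinase gene of this list, was at 170.6 ± 8.85 CPM in NT and 197.0 ± 7.81 CPM in TAR libraries (SD, n = 3 each). Each TAR library lay above each NT library, with a log2 fold change of 0.21 ± 0.08 (edgeR unadjusted p = 0.0240, adjusted p = 0.248). ABCE1, which recycles ribosomes and whose effect on the kinases was not tested, had the smallest p of that list. It was at 164.0 ± 12.6 CPM in NT and 206.4 ± 14.1 CPM in TAR libraries (SD, n = 3 each), with each TAR library above each NT library and a log2 fold change of 0.33 ± 0.09 (edgeR adjusted p = 0.194). GCN1, the ribosome-bound activator of GCN2, was at 455.7 ± 33.9 and 404.2 ± 29.04 CPM, and the chaperone HSPA5, which restrains PERK, at 525.7 ± 57.2 and 493.3 ± 36.4 CPM (SD, n = 3 each). In this list the groups did not overlap for 5 of 8 genes, and after GC correction 0 of the 8 had an unadjusted p under 0.05.

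Of 8 subunit genes of eIF2, the target of the kinases, and of eIF2B, its exchange factor, 6 lay above 0 and 2 were at an unadjusted p under 0.05, with a median of 0.057. EIF2S1, the subunit that the kinases phosphorylate, was at 114.0 ± 4.38 and 133.8 ± 3.07 CPM (SD, n = 3 each), with a log2 fold change of 0.23 ± 0.08 (edgeR adjusted p = 0.211) and no overlap between groups. EIF2S2 had 0.19 ± 0.08 and EIF2S3 0.04 ± 0.10, and after GC correction 0 of the 8 genes had an unadjusted p under 0.05. Among the phosphatase 1 catalytic subunits and actin, which form the complex with PPP1R15 proteins, PPP1CB was at 131.0 ± 3.75 and 166.6 ± 10.99 CPM (SD, n = 3 each). Its log2 fold change was 0.35 ± 0.08 at a GC content of 35.5% (edgeR adjusted p = 0.193). After GC correction none of the 4 genes had an unadjusted p under 0.05. PPP1CC and ACTB had log2 fold changes of -0.04 ± 0.09 and -0.18 ± 0.12.

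ATF4 partners and related bZIP factors had a median of -0.097, with 5 of 8 below 0 and 3 of these at an unadjusted p under 0.05. JUND, a component of AP-1, was at 94.2 ± 5.25 and 73.5 ± 12.9 CPM and NFE2L1, which controls proteasome genes, at 165.2 ± 8.81 and 144.0 ± 0.920 CPM (SD, n = 3 each). Their log2 fold changes were -0.36 ± 0.11 and -0.20 ± 0.08 (edgeR adjusted p = 0.209 and 0.250), at GC contents of 69.7% and 55.2%. CEBPG, a dimer partner of ATF4, had 0.09 ± 0.09, and BATF2, at 1.77 ± 0.118 and 1.00 ± 0.144 CPM, had -0.82 ± 0.25 (edgeR adjusted p = 0.202). After GC correction 1 of the 8 genes had an unadjusted p under 0.05.

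Of the 39 ATF4 and CHOP target genes, 29 lay below 0 with a median of -0.11 at a median GC content of 51.5%, and values ran from -0.32 to 0.22. Of all genes tested, 50.6% lay below 0. The directions in this list are without GC correction and were not recounted after it. At an unadjusted p under 0.05 there was 1, NARS1, the asparaginyl-tRNA synthetase, with a log2 fold change of 0.19 ± 0.08. At that threshold DESeq2 had 0 of the 39, limma-voom 1 and edgeR after GC correction 0. The abundant ASNS, the asparagine synthetase, was at 689.3, 679.3 and 831.6 CPM in NT and 698.8, 633.0 and 681.5 CPM in TAR replicates 1 to 3. The amino acid transporter genes SLC7A1 and SLC7A5 were at 668.2 ± 52.0 and 664.8 ± 65.3 CPM in NT, and 608.8 ± 28.6 and 610.4 ± 23.8 CPM in TAR libraries (SD, n = 3 each). ASNS, SLC7A1 and SLC7A5 had log2 fold changes of -0.13 ± 0.11, -0.13 ± 0.10 and -0.12 ± 0.10. Without NT replicate 1, where 8.98% of all genes were called, edgeR called 4 of the 39, PHGDH, PYCR1, SHMT2 and SLC7A11. With all 6 libraries, PHGDH, PYCR1 and SHMT2 had log2 fold changes of -0.21 ± 0.12, -0.24 ± 0.12 and -0.25 ± 0.13. SLC7A11 lay on the other side of 0, at 0.22 ± 0.15. These 4 genes, EIF2AK2, DNAJC3 and PPP1CA are named after their values were seen.

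Among sestrins and the GATOR2 complex, which sestrins bind in mTORC1 control, 4 of 7 genes lay above 0 and 2 were at an unadjusted p under 0.05, in opposite directions. The GATOR2 subunit WDR24 had a log2 fold change of -0.27 ± 0.10 at a GC content of 63.4%. SEC13 had -0.21 ± 0.10, WDR59 -0.07 ± 0.08 and SEH1L 0.11 ± 0.09. After GC correction 0 of the 7 genes had an unadjusted p under 0.05. Relatives of TRIB3 and CHAC1 numbered 4, of which 3 lay above 0. At an unadjusted p under 0.05 there were 2 of the 4, and 1 after GC correction. GGCT, another gamma-glutamylcyclotransferase, was at 25.4 ± 4.37 and 33.4 ± 1.47 CPM (SD, n = 3 each), with a log2 fold change of 0.39 ± 0.12 (edgeR adjusted p = 0.203), while TRIB1 and TRIB2 had 0.06 ± 0.16 and -0.10 ± 0.14.

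**Figure D4:**
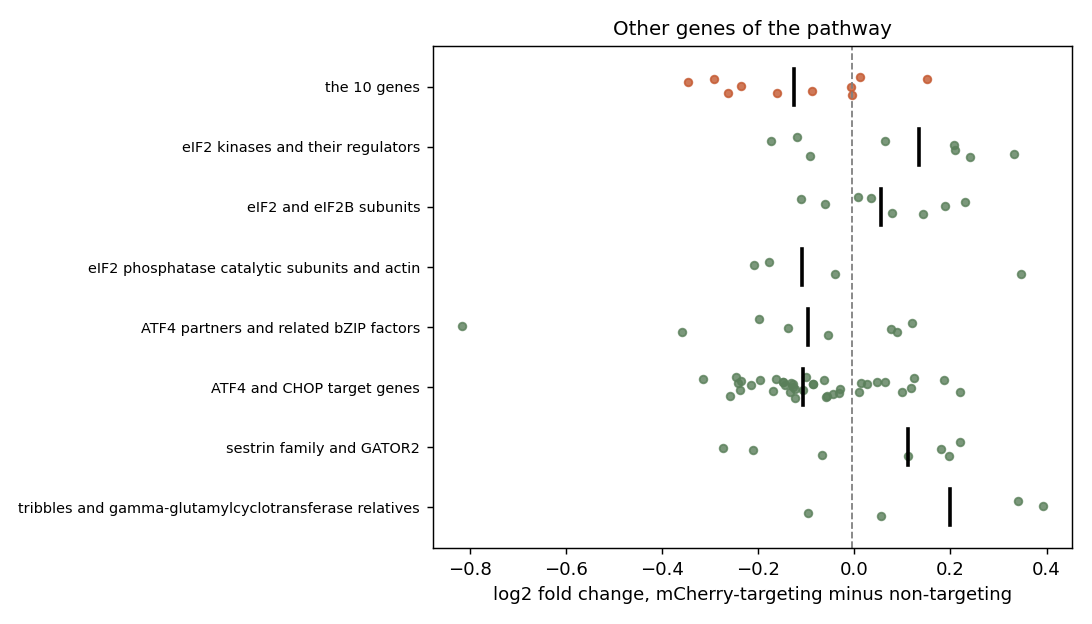
Log2 fold change (horizontal axis, TAR minus NT) of each gene (points) in the lists (rows), with the list median (black bar) and the median of all 19676 genes (dashed line). Target genes of ATF4 and CHOP lie mostly below 0, between -0.32 and 0.22, and eIF2 and eIF2B subunits mostly above it. Values are without GC correction.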

How the data were processed

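Poly(A)-enriched, strand-marked RNA libraries of HEK293T cells were measured, 3 per group. The authors deposited raw counts per gene in a table of 57820 Ensembl identifiers, and cutadapt 4.4, STAR 2.7.4a and hg19 (GRCh37) appear in the submitters' processing notes. No counting tool, strand setting or annotation is named there. Identifiers without their version were matched to GENCODE 29 on GRCh38 (52338 matched, 39538 with a symbol), which gave lengths, GC content and coordinates. Length and GC content are those of the longest transcript.

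The tests were run on these counts in edgeR 4.0.16 (R 4.3.3), with TMM scaling, filterByExpr, a robust quasi-likelihood test with group as its term, and Benjamini-Hochberg adjustment over 19676 genes. The common biological coefficient of variation was 0.113. Libraries held 21321850 to 25906275 counts. The fit was tested on simulated data. SE and 95% intervals are those of the fit. Log2 CPM used a prior count of 2. Every pair of replicate libraries differed beyond sampling noise (chi-square per degree of freedom 9.61 to 41.1).

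The 10 genes and the lists were chosen with earlier results of these data known. Of the HEK293 markers 2 had no match by symbol and 1 more is not reported here. Named list genes were the called ones, the 3 most abundant and the 1 with the smallest p in each list. EIF2AK2 was named in addition, as the eIF2 kinase gene of the lists. Alternatives were other scalings (DESeq2-type factors, library sizes alone, upper quartile), no filter or a mean of at least 5 CPM, DESeq2 1.42.0, limma-voom (limma 3.58.1), a replicate block, leaving out each library, removal of a loess trend (span 0.5) on GC content, known for 96.0% of the genes, and a term that divides libraries at a 7SK share of 1%, called the library set term. Other library scalings for the order of the libraries were chosen after seeing the data.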

Additional observations from a re-analysis of the deposited data

How the results depend on the processing

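Against 2 calls over all genes, edgeR gave 1 with library sizes alone, 1 with a mean of at least 5 CPM, 1 after GC correction, 7 after GC correction with the replicate block, 597 with no filter, 712 with the library set term and 41 when GC correction joined it, and DESeq2 gave 173. Leaving out 1 library gave 1 to 1806 calls, the highest without NT replicate 1; the cause was not tested. Of the 10 genes 0 were called in 17 of the 18 alternatives and 1, PPP1R15A, with the library set term, and leaving out 1 library gave 0 to 0. At an unadjusted p under 0.05 (edgeR), 4 of the 10 passed without TAR replicate 1, against 2083 of 20136 genes. They were PPP1R15A, SESN2, TRIB3 and CHAC1, all lower in TAR. Without NT replicate 1 there were 3, against 5359 of 20102, and without NT replicate 2 there were 2, against 2391 of 20248. Without NT replicate 3, TAR replicate 2 or TAR replicate 3 there were 0, against 1829 of 20295, 1970 of 20185 and 2982 of 20259. Over the alternatives EIF2AK1, PPP1R15A, TRIB3, CHAC1 and SESN2 stayed below 0 and EIF2AK3 above it. With the sign turned, EIF2AK4 was at 0.0097 with library sizes alone. ATF4 was at 0.027 after GC correction, 0.037 with the replicate block added, 0.015 with the library set term and 0.11 with that term after GC correction. DDIT3 was at 0.011 with library sizes alone, 0.014 after GC correction and 0.0018 with the block added. PPP1R15B was at -0.0099 with upper-quartile factors, -0.088 after GC correction, -0.088 with the block added and -0.054 with GC correction and the library set term. Leaving out 1 library gave -0.031 to 0.033 for EIF2AK4, -0.22 to 0.019 for ATF4, -0.32 to 0.23 for DDIT3 and -0.024 to 0.033 for PPP1R15B.

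The replicate block gave 1209 calls over all genes and 0 of the 10, and of the pathway lists it called ABCE1, PPP1CB, JUND and GGCT. With GC correction added it called none of these. Deviations from group means correlated across 14458 genes at 0.356, -0.0186 and 0.55 for libraries of the same number. NT replicate 1 and TAR replicate 1 correlated best with each other, as did NT replicate 3 and TAR replicate 3. NT replicate 2 correlated best with TAR replicate 3 (0.144), so the numbers were not shown to pair the samples. At an unadjusted p under 0.05 (edgeR), the block without GC correction had 3 of the 10 genes, against 4765 of 19676 genes. They were EIF2AK1, PPP1R15A and SESN2, all lower in TAR, and the smallest adjusted p was 0.0566, for PPP1R15A (edgeR). With GC correction added it had 1, against 2465 of 18893.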
